A study of Mus musculus with 24 samples.

Results

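Eosinophils grown from the bone marrow of Csf2ra-/- mice and given GM-CSF were compared with wild-type eosinophils given GM-CSF. The comparison took the 3 Csf2ra-/- libraries and the 3 wild-type libraries labelled with GM-CSF alone, 6 of the 24 libraries of the series, and all genes counted in them. Wild-type cells that also received IL-10 were left out of it. Both genotypes were C57BL/6 by label, and both were grown with stem cell factor and FLT3 ligand, then with IL-5. From day 13 the cells stayed overnight in IL-5 at 10 ng/ml with recombinant GM-CSF at 20 ng/ml. Csf2ra-/- cells without GM-CSF and wild-type cells without GM-CSF (3 libraries each), kept in the same IL-5, served to show the genotype difference in the absence of the cytokine. The labels do not describe how the Csf2ra allele was made. They name a dead-cell removal on day 13 and no sort for eosinophils, so other cells of the culture may be present in each library. In such bulk RNA, fewer cells of a type and less RNA per cell cannot be told apart.

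GM-CSF is a cytokine that binds a receptor made of a private alpha chain, encoded by Csf2ra, and the beta common chain, encoded by Csf2rb, which is also part of the IL-5 and IL-3 receptors. The assembled receptor signals through JAK2 and STAT5, and through MAP kinase and PI3 kinase pathways. IL-5 uses its own alpha chain with the same beta chain, so cells without the GM-CSF alpha chain can still receive IL-5. In mature eosinophils GM-CSF is known as a survival and activating factor.

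The 6 libraries held 13010258 to 18295944 counts each. Levels are given as CPM, the counts scaled to library size with edgeR's TMM factors, and differences as log2 fold changes ± SE, Csf2ra-/- over wild type. A gene was called when its Benjamini-Hochberg adjusted p was under 0.05 over the 11885 genes tested. The log2 CPM of libraries correlated at r = 0.9804 to 0.9923 across genes within Csf2ra-/- and at 0.9831 to 0.9901 within wild type, and between genotypes at 0.9661 to 0.9858. The labels speak of triplicates and not of separate animals, so the p-values measure only the spread between these libraries, which may be technical. The Y-linked genes set 1 wild-type library apart: together 4 such genes had 182, 152 and 184 CPM of total counts in the Csf2ra-/- libraries, against 184, 176 and 52.6 CPM in the wild-type libraries. A fit with that sum as a covariate gave 97 genes higher and 304 lower. Counts of list members below are counts of the members that passed the filter on low counts.

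Csf2ra itself (ENSMUSG00000059326, GRCm38 chromosome 19, 61223957 to 61228429, minus strand) had 38.1, 39.8 and 38.4 CPM in Csf2ra-/- cells with GM-CSF, against 58.7, 83.8 and 74.02 CPM in wild-type cells with GM-CSF. The groups did not overlap, and the difference was -0.90 ± 0.14 (adjusted p = 3.15e-04). Without GM-CSF, Csf2ra-/- cells had 29.9, 28.5 and 38.4 CPM and wild-type cells 53.4, 56.5 and 59.2 CPM. Reads of the gene thus remained in the Csf2ra-/- libraries, and a count per gene does not show from which exons they came. The other receptor chains were not called. Csf2rb, the shared beta chain, differed by -0.21 ± 0.13 (adjusted p = 0.552), its close copy Csf2rb2 by -0.20 ± 0.15, the IL-5 alpha chain Il5ra by 0.56 ± 0.24 (adjusted p = 0.278) and the IL-3 alpha chain Il3ra by 0.29 ± 0.17. Of 24 genes that relay the receptor signal, among them Jak2, Stat5a and Stat5b, 0 were called, with a median log2 fold change of -0.005.

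With GM-CSF present, 343 genes were lower and 108 genes were higher in Csf2ra-/- cells than in wild-type cells, 3.79% of the genes tested (2.89% lower and 0.909% higher). Of the lower genes, 257 differed by at least 2-fold and 336 had libraries that did not overlap between the genotypes. Among the higher genes these numbers were 29 and 99. Non-overlapping libraries were seen in 18.1% of all genes tested. The median log2 fold change of all tested genes was -0.0025. The falls were larger than the rises: the named falls lay between -3.27 for Nrp2 and -5.62 for Ccl17, beside Plet1 whose fold has only a bound, and the 14 named rises between 0.98 for Cbr3 and 2.09 for Egr1.

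Most of these genes leaned the same way without GM-CSF. In untreated cells, which share no library with the comparison above, 1288 genes were called between the genotypes (10.8% of those tested, 5.52% higher and 5.32% lower in Csf2ra-/-). Of the 343 genes lower with GM-CSF, 320 were lower in sign in untreated Csf2ra-/- cells (93.29%, against 49.63% of all genes tested). Of the 343, 193 were called lower there, which is 56.3% of them and 30.5% of the 632 genes lower in untreated cells. Of the 108 genes higher with GM-CSF, 106 were higher in sign (98.15%, against 50.34% of all genes tested). Of the 108, 64 were called higher, 59.3% of them and 9.76% of the 656 genes higher in untreated cells. Kif1a, a kinesin motor gene singled out after its values were seen, was called lower with GM-CSF (adjusted p = 0.003) and higher without it (adjusted p = 0.0251). The untreated count varied with its libraries: it was 359 without Csf2ra-/- replicate 1, 2620 without Csf2ra-/- replicate 2, 291 without wild-type replicate 2 and 520 without wild-type replicate 3. The Y-linked sum was 162, 181 and 165 CPM in untreated Csf2ra-/- libraries, against 175, 56.9 and 50.7 CPM in untreated wild-type libraries, and with it as a covariate 747 genes were called. The labels do not say whether treated and untreated libraries came from the same cultures.

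**Figure D1:**
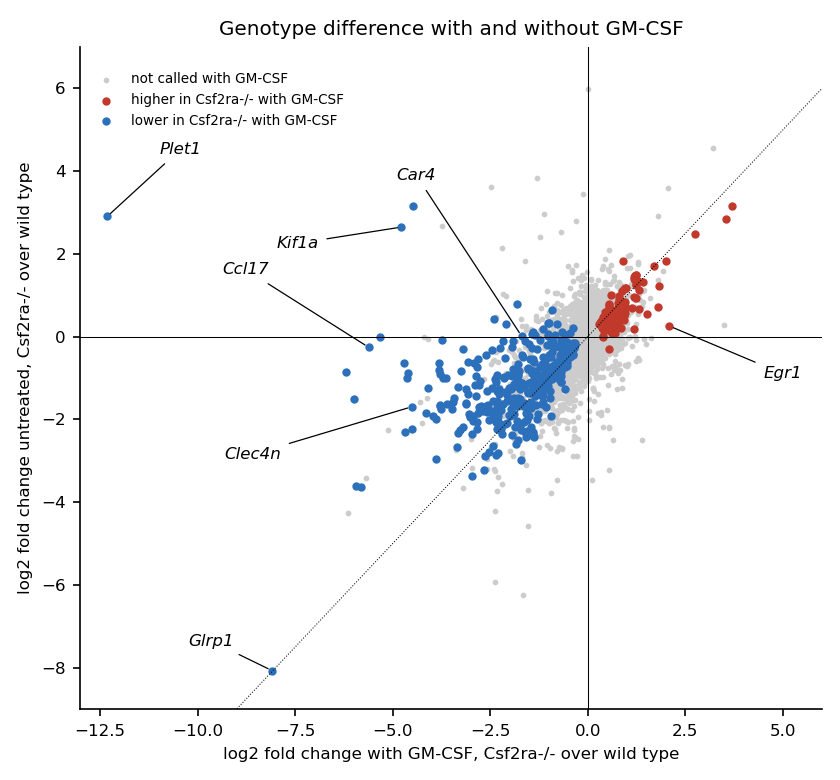
Log2 fold change of each tested gene between Csf2ra-/- and wild-type cells with GM-CSF (x axis) and without it (y axis); blue points are the 343 genes lower and red points the 108 genes higher with GM-CSF, grey points the other genes, and the dotted line marks equal differences. Glrp1 lies on that line, Ccl17, Car4 and Egr1 lie near a y value of 0, and the fitted values of Plet1 and Glrp1, both at 0 counts in Csf2ra-/- cells with GM-CSF, are no measured sizes.

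Of the 33 gene lists, the chemokines had the largest share of members lower. Of 12 chemokine genes tested, 10 were lower in Csf2ra-/- cells, 0 were higher, and the median was -2.47. Promoters were sought for the largest named falls, Plet1, Ccl17, Clec4n, Ccl24, Hr and Wfdc17, and for the STAT5 target Cish, which was not called. No RefSeq promoter (build GRCm38.p6) was found for Clec4n, Ccl24 and Hr, so those of 3 falls and of Cish are shown. Each runs from 250 bases before to 50 bases after the annotated start, 5′ to 3′ on the plus strand. Capitals mark TTCNNNGAA, the core of a STAT5 site, which reads the same on both strands.
Plet1, chr9:50494275-50494574: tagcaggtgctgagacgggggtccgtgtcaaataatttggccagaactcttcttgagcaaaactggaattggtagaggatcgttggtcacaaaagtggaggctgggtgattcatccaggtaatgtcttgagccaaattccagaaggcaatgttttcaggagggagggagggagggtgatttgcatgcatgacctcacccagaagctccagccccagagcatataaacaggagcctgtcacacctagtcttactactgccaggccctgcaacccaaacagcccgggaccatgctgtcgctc
Ccl17, chr8:94810203-94810502: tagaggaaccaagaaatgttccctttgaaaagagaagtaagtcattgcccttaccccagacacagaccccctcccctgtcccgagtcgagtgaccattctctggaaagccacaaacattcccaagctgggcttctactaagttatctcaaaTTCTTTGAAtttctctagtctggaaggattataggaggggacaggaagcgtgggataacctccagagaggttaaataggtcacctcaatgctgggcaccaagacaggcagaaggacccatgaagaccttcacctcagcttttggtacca
Wfdc17, chr11:83703806-83704105: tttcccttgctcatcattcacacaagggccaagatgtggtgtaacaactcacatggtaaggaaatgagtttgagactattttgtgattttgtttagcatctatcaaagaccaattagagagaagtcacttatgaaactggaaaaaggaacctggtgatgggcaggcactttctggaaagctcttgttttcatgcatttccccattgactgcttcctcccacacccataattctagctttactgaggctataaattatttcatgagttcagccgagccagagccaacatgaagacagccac
Cish, chr9:107296409-107296708: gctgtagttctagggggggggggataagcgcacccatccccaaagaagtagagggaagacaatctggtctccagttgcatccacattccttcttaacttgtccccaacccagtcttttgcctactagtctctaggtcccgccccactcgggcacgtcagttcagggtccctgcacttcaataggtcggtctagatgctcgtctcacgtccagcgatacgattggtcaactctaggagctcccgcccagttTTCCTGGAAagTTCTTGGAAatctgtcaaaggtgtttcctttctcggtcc
The window held 1 match in Ccl17, 2 in Cish and 0 in Plet1 and Wfdc17. Of the 32851 promoters in the RefSeq table, 2726 held the motif (8.30%). Of 323 promoters of 263 genes called lower, 19 held it (5.88%), and the other lowered genes had no match by symbol. These letters are a description of the window and not of binding.

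Ccl17 (ENSMUSG00000031780, GRCm38 chromosome 8, 94810453 to 94812036) and Ccl22 encode the chemokines that bind CCR4, a receptor of T helper 2 and regulatory T cells. Ccl17 had 2.86, 2.11 and 3.25 CPM in Csf2ra-/- cells with GM-CSF, against 153, 79.6 and 174 CPM in wild-type cells with GM-CSF, a difference of -5.62 ± 0.43 (adjusted p = 1.21e-07). Untreated, it had 5.67, 2.89 and 3.25 CPM in Csf2ra-/- cells and 3.85, 4.13 and 5.31 CPM in wild-type cells. The Csf2ra-/- libraries with GM-CSF overlapped the untreated Csf2ra-/- libraries, and each wild-type library with GM-CSF lay above all of the other 9. Ccl22 had 24.5, 10.4 and 18.3 CPM in Csf2ra-/- cells, against 209, 151 and 179 CPM in wild-type cells (-3.33 ± 0.37, adjusted p = 1.34e-05). It was also called lower in untreated Csf2ra-/- cells, at -1.21 (adjusted p = 0.0404), and the change of the difference with GM-CSF was not called for it (adjusted p = 0.263).

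Ccl24, which encodes eotaxin-2, a ligand of the eosinophil receptor CCR3, had 0.486, 0.451 and 0.517 CPM in Csf2ra-/- cells, against 11.4, 7.07 and 15.3 CPM in wild-type cells (-4.51 ± 0.54, adjusted p = 1.81e-05). The 3 Csf2ra-/- libraries lay within 0.07 CPM of each other, while the wild-type libraries spread widely. Ccl4, an inflammatory chemokine gene, had 3.40, 3.31 and 3.40 CPM, against 55.95, 41.6 and 41.9 CPM in wild type (-3.78 ± 0.27, adjusted p = 2.11e-08). The monocyte attractants Ccl2 and Ccl7 fell by 3.77 and 2.96 on the log2 scale, with 1.84, 2.11 and 1.70 CPM of Ccl2 in Csf2ra-/- cells and 24.3, 16.9 and 36.3 CPM in wild-type cells. Ccl9 differed by -1.97 ± 0.24 and the neutrophil attractant Cxcl2 by -1.49 ± 0.18. Cxcl3 (-0.84 ± 0.23) and Cxcl16 (-1.47 ± 0.38) passed the threshold narrowly, at adjusted p = 0.0468 and 0.0281. Ccl3 (-0.40 ± 0.14, adjusted p = 0.161) and Ccl6 (-0.37 ± 0.16, adjusted p = 0.259) were not called. With each of the 6 libraries left out in turn, 8 to 10 chemokine genes were called lower.

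Plet1, which encodes a surface protein of epithelial progenitors and some dendritic cells, was read at 15.8 CPM or more in wild-type cells with GM-CSF and at 0.864 CPM or less in the other 3 groups. It had 0, 0 and 0 CPM in Csf2ra-/- cells with GM-CSF, against 48.2, 15.8 and 71.2 CPM in wild-type cells with GM-CSF (adjusted p = 3.77e-05). Over the group these were 0 counts in Csf2ra-/- and 2116 in wild type, which makes Plet1 at least 645-fold lower against a floor of 3 counts over the group. Untreated libraries had 0.864, 0.177 and 0 CPM in Csf2ra-/- cells and 0, 0 and 0.0750 CPM in wild-type cells. The wild-type libraries with GM-CSF differed among themselves, with replicate 2 lowest.

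That order recurred. Wild-type replicate 2 was the lowest of the 3 wild-type GM-CSF libraries in 222 of the 343 lowered genes (64.7%), against 37.3% of all genes tested. Without that library 326 genes were lower and 82 higher.

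Receptors for fungal and bacterial molecules were lower as well. Among 11 C-type lectin receptor genes tested, 5 were lower, 0 were higher, and the median was -1.35. Untreated, 7 of the 11 were lower in Csf2ra-/- cells and 1 was higher, with a median of -1.519. Clec4n, which encodes Dectin-2, had 1.68, 0.752 and 2.51 CPM in Csf2ra-/- cells, against 43.9, 32.9 and 36.9 CPM in wild-type cells (-4.51 ± 0.32, adjusted p = 2.11e-08). Its untreated levels were 1.48, 1.06 and 2.13 CPM in Csf2ra-/- cells and 7.78, 3.70 and 3.59 CPM in wild-type cells, so a smaller gap was present without GM-CSF. Clec7a, which encodes Dectin-1, had 19.9, 13.02 and 16.6 CPM, against 45.4, 40.7 and 40.7 CPM in wild type (-1.35 ± 0.14). Clec4d (-1.85 ± 0.19) and Clec5a (-2.07 ± 0.28) were lower without overlap, and Clec4e, the Mincle gene, was called (-0.95 ± 0.26, adjusted p = 0.0418) with libraries that overlapped. Clec12a, an inhibitory lectin receptor, stood at 0.24 ± 0.12 and was not called. Left-out libraries gave 4 or 5 called members.

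Among 13 Toll-like receptor and adaptor genes, 2 were lower and 0 higher, with a median of -0.123. Untreated, 7 of the 13 were lower in Csf2ra-/- cells, 0 were higher and the median was -0.796. Tlr2, the receptor for bacterial lipopeptides, had 2.70, 2.63 and 2.73 CPM in Csf2ra-/- cells, against 13.3, 11.3 and 11.3 CPM in wild-type cells (-2.15 ± 0.20, adjusted p = 7.12e-07). Cd14, a coreceptor gene for lipopolysaccharide, had 7.35, 6.09 and 9.97 CPM, against 26.3, 17.7 and 20.4 CPM in wild type (-1.46 ± 0.25). Both genes were also called lower in untreated Csf2ra-/- cells, at -1.003 and -0.80. The adaptor Myd88 (-0.02 ± 0.13) was not called.

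Genes of antigen presentation on MHC class II were lower in both conditions. Of 11 tested, 7 were lower with GM-CSF, 0 were higher and the median was -1.78. Ciita, the master regulator of these genes, had 1.14, 0.903 and 0.222 CPM in Csf2ra-/- cells, against 8.52, 3.84 and 9.62 CPM in wild-type cells (-3.21 ± 0.46, adjusted p = 1.34e-04). H2-Aa had 19.2, 11.9 and 19.7 CPM, against 93.7, 48.5 and 126 CPM in wild type (-2.40 ± 0.43, adjusted p = 0.00212). The invariant chain gene Cd74 had 73.4, 45.4 and 59.8 CPM, against 299.7, 173 and 373 CPM in wild type (-2.24 ± 0.38). No library of these 3 genes overlapped between the genotypes.

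H2-Eb1 (-2.34 ± 0.49), the peptide-loading genes H2-DMa (-1.78 ± 0.29) and H2-DMb2 (-2.76 ± 0.51), and the protease gene Ctss (-1.66 ± 0.35) were called lower too. H2-Ab1 was not (-1.11 ± 0.49, adjusted p = 0.301), nor were H2-DMb1, H2-Oa and H2-Ob. In untreated cells 6 of the 11 were called lower, and H2-Aa stood there at 22.5, 16.7 and 22.3 CPM in Csf2ra-/- cells and 76.97, 81.1 and 74.3 CPM in wild-type cells. The untreated gap (-1.93 ± 0.43) was close in size to that with GM-CSF, and their difference was not called (adjusted p = 0.935). Between 5 and 8 members were called with a library left out. Dendritic cell markers were lower in the same libraries, 5 of 11 tested, and their part in these differences was not tested.

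**Figure D2:**
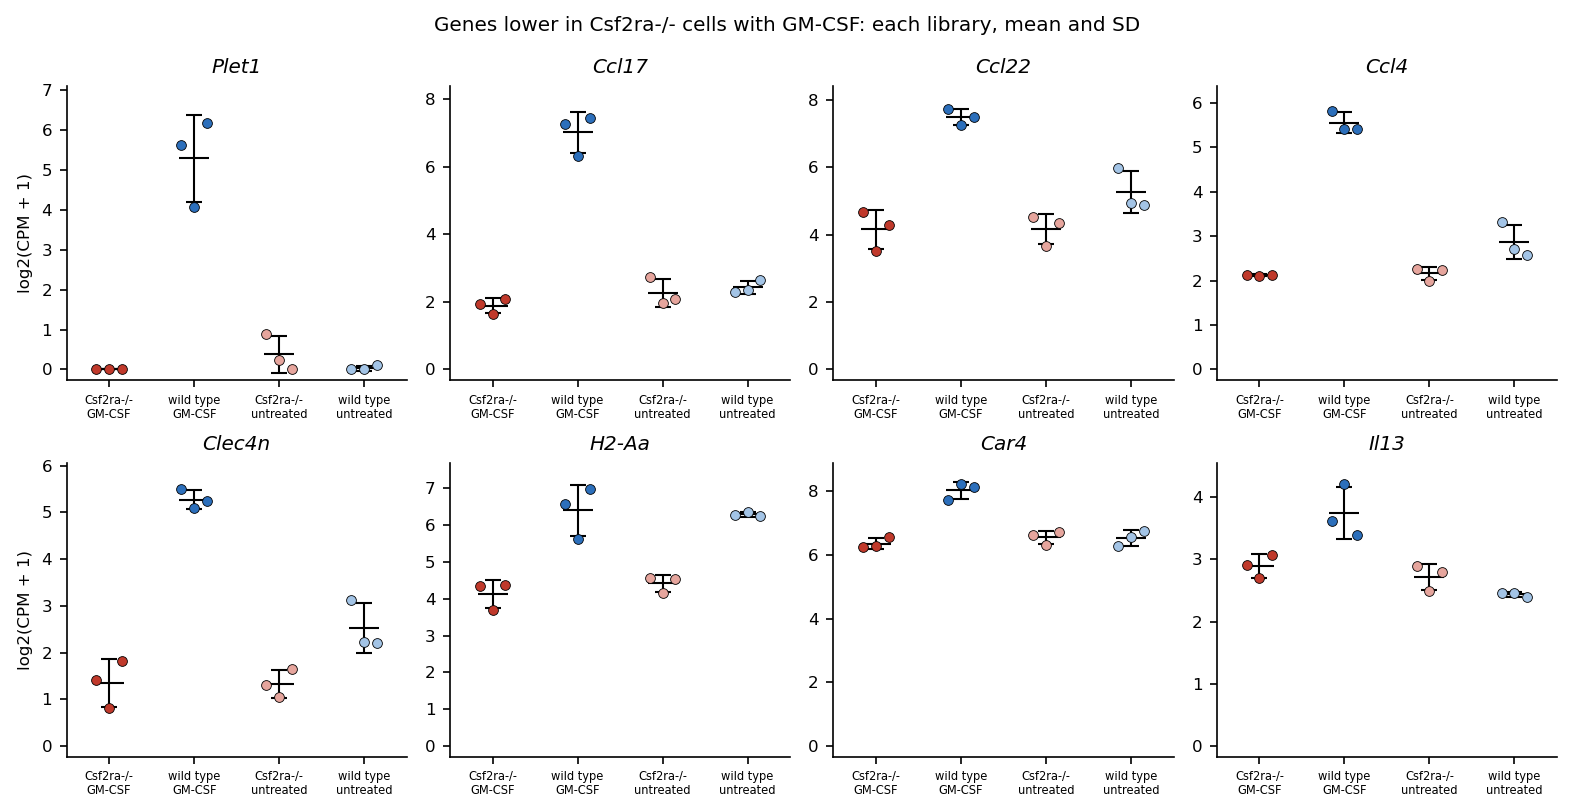
Level of 8 genes called lower, as log2(CPM + 1), in each library of the 4 groups; points are libraries, horizontal bars the mean and whiskers the SD (n = 3). For Ccl17, Car4 and Il13 wild-type cells with GM-CSF stand above the other 3 groups, while H2-Aa is lower in both Csf2ra-/- groups.

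Genes tied to tissue remodelling and alternative activation contributed 7 falls among 22 tested with GM-CSF, with 0 rises. Their median was -1.08, which was the same with Plet1 put at its bound. Untreated, 11 of the 22 were lower in Csf2ra-/- cells, 0 were higher and the median was -0.876. Mmp12, the macrophage elastase gene, had 54.3, 29.6 and 36.9 CPM in Csf2ra-/- cells, against 298, 196 and 317 CPM in wild-type cells (-2.74 ± 0.28, adjusted p = 2.65e-06). Chil3, a chitinase-like protein gene, had 13.7, 8.35 and 8.20 CPM, against 77.04, 48.6 and 42.4 CPM in wild type (-2.46 ± 0.27). Spp1, which encodes osteopontin, had 80.1, 63.05 and 76.03 CPM, against 227, 219 and 144 CPM in wild type (-1.43 ± 0.19). Its untreated levels, 96.3, 65.7 and 86.5 CPM in Csf2ra-/- cells and 106, 64.8 and 65.8 CPM in wild-type cells, overlapped.

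Mmp9 (-1.18 ± 0.16), Mmp13 (-0.98 ± 0.25) and Hbegf (-0.78 ± 0.20) were the other falls besides Plet1. Arg1 stood at -2.97 ± 0.95 and Mrc1 at -1.69 ± 0.80, with wild-type libraries from 1.86 to 17.2 CPM for Mrc1, and neither was called (adjusted p = 0.104 and 0.35). Without single libraries 5 to 8 members were called lower. Among 24 genes of cholesterol and lipid handling, 3 were lower and 0 higher. Lpl, the lipoprotein lipase gene, had 50.7, 29.04 and 35.9 CPM in Csf2ra-/- cells, against 232, 151 and 202 CPM in wild-type cells (-2.33 ± 0.25, adjusted p = 5.20e-06). The fatty acid carriers Cd36 (-1.73 ± 0.29) and Fabp5 (-1.31 ± 0.29) fell with it, whereas the sterol regulators Srebf1 (-0.01 ± 0.10) and Srebf2 (0.07 ± 0.11) were not called.

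Cytokine genes split. Of 9 inflammatory cytokine genes tested, 3 were lower and 1 was higher. Il1b had 3.67, 1.81 and 2.51 CPM in Csf2ra-/- cells, against 15.7, 11.2 and 8.32 CPM in wild-type cells (-2.12 ± 0.33, adjusted p = 3.15e-04). Il1a differed by -2.46 ± 0.50, and Tnf had 28.2, 25.8 and 27.6 CPM, against 45.6, 49.02 and 36.4 CPM in wild type (-0.68 ± 0.12). None of the 3 was called in untreated cells. Osm, which encodes the STAT5-responsive cytokine oncostatin M, was higher, with 136, 157 and 205 CPM in Csf2ra-/- cells, against 85.6, 89.5 and 112 CPM in wild-type cells (0.80 ± 0.18, adjusted p = 0.0138). That call was lost in 3 of the 6 fits that left out a library. Of 3 type 2 and regulatory cytokine genes, 1 was lower. Il13 had 6.54, 5.49 and 7.39 CPM, against 11.3, 17.5 and 9.55 CPM in wild type (-0.98 ± 0.21, adjusted p = 0.00751), while Il4 (-0.23 ± 0.15) was not called.

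Of 13 costimulatory and checkpoint ligand genes, 4 were lower and 0 higher. Cd274, which encodes PD-L1, had 19.7, 21.9 and 22.2 CPM in Csf2ra-/- cells, against 40.2, 33.9 and 35.4 CPM in wild-type cells (-0.78 ± 0.16, adjusted p = 0.0052). Pdcd1lg2 (PD-L2, -1.01 ± 0.28), Tnfsf4 (OX40 ligand, -1.82 ± 0.33) and Cd40 (-3.07 ± 0.66) were the others, each below 6 CPM in these 6 libraries. The list held 2 calls without Csf2ra-/- replicate 2 and 3 or 4 without each of the other libraries, and Pdcd1lg2 lost its call in 4 of the 6 fits. Among 24 genes that NF-kB induces or that restrain it, 5 were lower and 0 higher, with 2 or 3 called when a library was left out. Relb lost its call in 6 of those 6 fits and Traf1 in 5. Nfkb2 had 30.7, 33.6 and 37.8 CPM, against 46.2, 48.4 and 47.5 CPM in wild type (-0.48 ± 0.11), Relb differed by -0.83 ± 0.22, Tnip3 by -1.64 ± 0.27 and Traf1 by -1.81 ± 0.48. The survival gene Bcl2a1d was also lower (-2.09 ± 0.35), but Bcl2a1a, Bcl2a1b and Bcl2a1d are near-identical copies whose reads can be split between them. It was the 1 called gene of 16 in the BCL2 family, where Mcl1 (-0.16 ± 0.13) and Bcl2l1 (-0.25 ± 0.08) were not called.

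Of 20 STAT5 targets and feedback inhibitors tested, 4 were lower and 1, Osm, was higher. The 4 falls, Socs3 (-0.996 ± 0.21), Ccnd1 (-1.46 ± 0.35), Ccnd2 (-0.39 ± 0.10) and Il2ra (-2.91 ± 0.77), numbered 0 to 3 when a library was left out. They were 0 without Csf2ra-/- replicate 1, and 1 without Csf2ra-/- replicate 2 or without wild-type replicate 3. Cish, whose promoter above holds 2 motif matches, had 326, 365 and 376 CPM in Csf2ra-/- cells, against 324, 393 and 364 CPM in wild-type cells (-0.02 ± 0.11, adjusted p = 0.979). The libraries of the genotypes overlapped. The survival kinase gene Pim1 (0.08 ± 0.14) and the feedback inhibitor gene Socs2 (-0.09 ± 0.13) were not called either.

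Further named falls encode receptors and secreted or nuclear proteins. Axl, a receptor kinase for the uptake of dying cells, had 3.89, 4.44 and 2.88 CPM in Csf2ra-/- cells, against 48.1, 23.6 and 51.6 CPM in wild-type cells (-3.45 ± 0.35, adjusted p = 2.65e-06). Flt1, a VEGF receptor gene, had 1.57, 0.602 and 0.813 CPM, against 17.5, 8.72 and 17.5 CPM in wild type (-3.80 ± 0.40), and the VEGF coreceptor gene Nrp2 differed by -3.27 ± 0.34. Ms4a6d had 1.73, 0.752 and 1.18 CPM, against 22.6, 8.72 and 24.8 CPM in wild type (-3.88 ± 0.56). Hr, a transcriptional corepressor (-3.97 ± 0.63), Wfdc17, a secreted protease inhibitor-like protein (-3.90 ± 0.45), and Olfm1, a secreted olfactomedin (-3.43 ± 0.61), completed the 14 falls named. Of these 14, 9 were called lower in untreated Csf2ra-/- cells as well. Itgax, the CD11c gene, had 31.4, 25.9 and 26.5 CPM, against 73.2, 73.3 and 79.7 CPM in wild type (-1.43 ± 0.12, adjusted p = 8.82e-08), 1 of 2 falls among 14 integrin and adhesion genes with Cd9 (-0.50 ± 0.10).

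**Figure D3:**
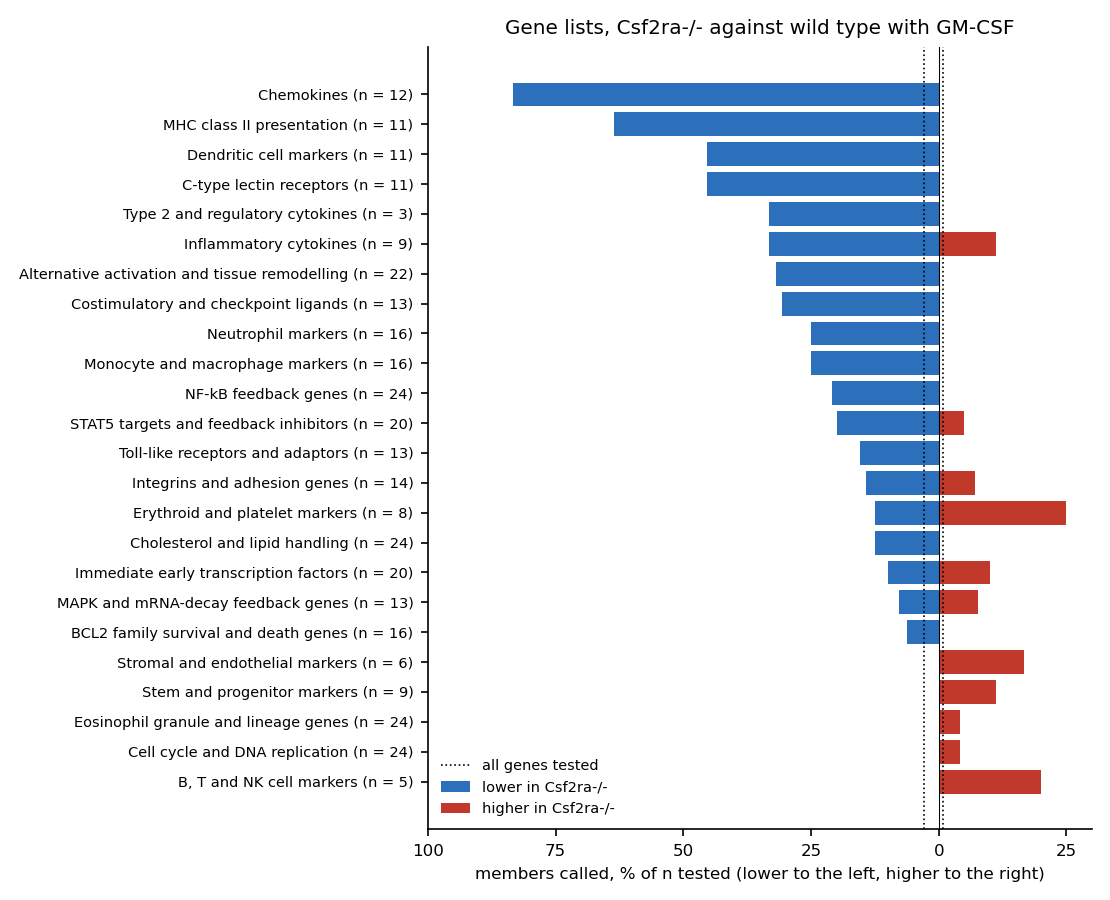
Share of the tested members of each gene list that were called lower (left, blue) or higher (right, red) in Csf2ra-/- cells with GM-CSF, for lists with at least 1 call; n is the number tested, and dotted lines mark the share among all genes tested. The chemokine bar, 10 of 12, reaches farthest left.

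Fewer genes were higher in Csf2ra-/- cells, and of the 14 named rises Egr1 had the largest log2 fold change. Egr1 (ENSMUSG00000038418, GRCm38 chromosome 18, 34859823 to 34864984), an immediate early transcription factor, had 370.2, 391 and 493 CPM in Csf2ra-/- cells, against 67.3, 109.6 and 118 CPM in wild-type cells (2.09 ± 0.22, adjusted p = 2.85e-06). Untreated cells of both genotypes were near the Csf2ra-/- value, at 308, 366 and 502 CPM in Csf2ra-/- cells and 244, 364 and 378 CPM in wild-type cells. Wild-type cells with GM-CSF were therefore the low group. Dusp1, a phosphatase that switches off MAP kinases, had 74.6, 78.9 and 79.4 CPM, against 26.1, 43.5 and 33.6 CPM in wild type (1.17 ± 0.19, adjusted p = 3.95e-04), and untreated levels of 76.6, 79.4 and 83.3 CPM in Csf2ra-/- cells and 53.3, 73.5 and 85.8 CPM in wild-type cells. The change of the Dusp1 difference with GM-CSF was not called (adjusted p = 0.337). Fosb, an AP-1 subunit gene, had 3.35, 3.01 and 4.51 CPM, against 1.03, 1.10 and 0.941 CPM in wild type (1.81 ± 0.30, adjusted p = 5.85e-04).

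The immediate early list as a whole went both ways. Of 20 tested, 2 were higher (Egr1 and Fosb) and 2 lower. The falls were Nr4a3, an orphan nuclear receptor gene with 3.30, 2.03 and 1.85 CPM in Csf2ra-/- cells, against 9.89, 10.9 and 7.38 CPM in wild-type cells (-1.95 ± 0.28), and Atf3 (-1.63 ± 0.25). Egr2 (-0.34 ± 0.17), Egr3 (-0.01 ± 0.35), Junb (-0.16 ± 0.42) and Fos (1.29 ± 0.41, adjusted p = 0.0984) were not called. Among 13 MAP kinase and mRNA-decay feedback genes, Spred1 was lower (-0.66 ± 0.15, lost in 2 of 6 fits without a library) beside the higher Dusp1, and Dusp6 (-0.10 ± 0.19) was not called.

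Most of the named rises were also called without GM-CSF. Of the 14 named rises, 11 were called higher in untreated Csf2ra-/- cells. Wdfy1, an endosomal adaptor gene, had 52.5, 53.2 and 54.8 CPM in Csf2ra-/- cells, against 19.7, 19.5 and 20.8 CPM in wild-type cells (1.42 ± 0.11, adjusted p = 3.11e-08), with 53.9, 56.3 and 47.2 CPM in untreated Csf2ra-/- cells and 20.3, 21.4 and 21.1 CPM in untreated wild-type cells. Ces2g, a carboxylesterase gene, had 24.7, 27.6 and 18.9 CPM, against 6.74, 9.27 and 5.79 CPM in wild type (1.70 ± 0.24). C7, a complement component gene, had 69.9, 68.7 and 47.7 CPM, against 27.9, 23.5 and 23.9 CPM in wild type (1.31 ± 0.22). None of these overlapped.

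Adgrg6 (2.004 ± 0.40), Kcnab1 (1.81 ± 0.33), Col6a3 (1.24 ± 0.31), Maob (1.24 ± 0.25), Tom1l1 (1.19 ± 0.23), Pdzph1 (1.18 ± 0.32), Clec2i (1.18 ± 0.27), Muc6 (1.13 ± 0.19) and Cbr3 (0.98 ± 0.20) were the other rises. Of the 9 Ugt1a genes tested, which encode glucuronosyltransferases, 8 were called higher with nearly the same log2 fold change (1.21 to 1.24) and 4825 to 4948 counts each over the 6 libraries. These genes share their last exons, so the reads are largely the same reads. Counted as 1 locus, they leave 101 genes higher. Each of the 8 lost its call in 4 of the 6 fits that left out a library.

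**Figure D4:**
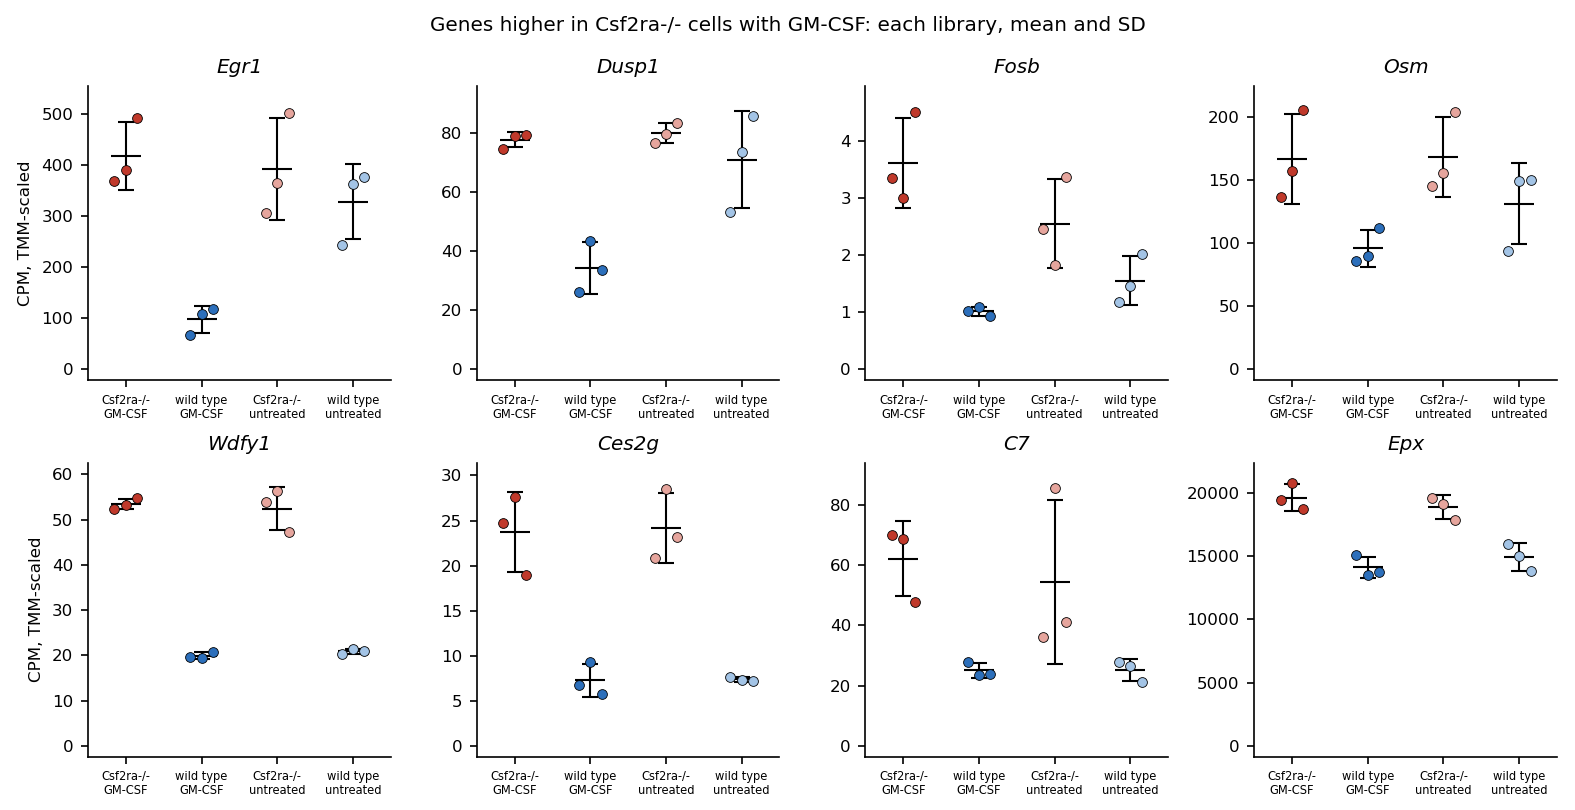
CPM of 8 genes called higher, in each library of the 4 groups; points are libraries, horizontal bars the mean and whiskers the SD (n = 3). Egr1 and Dusp1 are lowest in wild-type cells with GM-CSF, whereas Wdfy1 and Ces2g are higher in both Csf2ra-/- groups.

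Of 24 eosinophil granule and lineage genes tested, 1 was higher, 0 were lower and the median was 0.05. Epx, the eosinophil peroxidase gene, had 19415, 20766 and 18715 CPM in Csf2ra-/- cells, against 15102, 13513 and 13743 CPM in wild-type cells (0.48 ± 0.10, adjusted p = 0.00476). Prg2, the major basic protein gene, averaged 40756 ± 1465 CPM in Csf2ra-/- cells and 41351 ± 1132 CPM in wild-type cells (SD, n = 3 each; -0.02 ± 0.12). Siglecf (0.18 ± 0.18), Ccr3 (-0.49 ± 0.18) and Gata1 (0.06 ± 0.10) were not called. Of 24 cell cycle genes 23 were positive in sign with a median of 0.36, but 1, the replication helicase gene Mcm7 (0.45 ± 0.12, adjusted p = 0.0383), was called, in a list where 19 were higher in untreated Csf2ra-/- cells. With GM-CSF the list held 6 calls without Csf2ra-/- replicate 3, and 0 without Csf2ra-/- replicate 1 or 2 or without wild-type replicate 2 or 3.

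Lists with 0 calls with GM-CSF included ribosome biogenesis (25 genes tested, 19 positive and 6 negative in sign, among the latter Npm1 at -0.18 ± 0.14). Glycolysis and hypoxia also had 0 calls (21 genes, 21 negative in sign, median -0.188, such as Gapdh at -0.21 ± 0.18). So did the amino acid stress response (16 genes, such as Atf4 at -0.31 ± 0.28) and interferon-stimulated genes (17 genes). Paired receptors had 0 calls as well (16 genes, such as Sirpa at -0.02 ± 0.14). Untreated, 8 of the 25 ribosome biogenesis genes were higher in Csf2ra-/- cells and 0 lower (median 0.466). Of the 21 glycolysis and hypoxia genes 5 were lower untreated and 0 higher (median -0.317). The untreated comparison also held 2 higher genes of the amino acid list, 2 lower paired receptors and 0 calls among interferon-stimulated genes.

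Whether a genotype difference depended on GM-CSF was tested as the difference with GM-CSF minus the difference without it. It was called for 7 genes (0.0589% of those tested), with 692 genes at an unadjusted p under 0.05. Negative were Kif1a, Ccl17 (-5.36 ± 0.64, adjusted p = 8.90e-04), Ccl4 (-2.87 ± 0.40, adjusted p = 0.00166), Clec4n (-2.82 ± 0.50, adjusted p = 0.0266), Car4 (-1.71 ± 0.24, adjusted p = 0.00166) and Spp1 (-1.49 ± 0.27, adjusted p = 0.03). Egr1 was positive (1.84 ± 0.30, adjusted p = 0.0108). Car4, a membrane carbonic anhydrase gene, had 74.2, 75.8 and 92.4 CPM in Csf2ra-/- cells with GM-CSF, against 210.1, 298 and 278 CPM in wild-type cells with GM-CSF, and untreated levels of 98.2, 78.6 and 103 CPM in Csf2ra-/- cells and 76.3, 93.5 and 107 CPM in wild-type cells. Ccl17, Ccl4 and Car4 kept the call in the 25 settings tried. Without single libraries the adjusted p of Clec4n rose to at most 0.264, that of Egr1 to 0.0918 and that of Spp1 to 0.163. Clec4n was called in 16 of the 25 settings, Egr1 in 20 and Spp1 in 14. Kif1a was called in 22 of 24, and not with limma-voom or with the 4 groups without IL-10. For the other called genes a change of the genotype difference with GM-CSF was not shown.

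Csf2ra-/- cells themselves were compared with and without GM-CSF. By edgeR's quasi-likelihood test 0 genes were called in that comparison, with 531 genes at an unadjusted p under 0.05. The same test of wild-type cells with and without GM-CSF called 66 genes. A list of GM-CSF responses was then taken from libraries outside both genotype comparisons, wild-type cells given IL-10 with GM-CSF against wild-type cells given IL-10. GM-CSF raised 86 genes there (0.724% of those tested) and lowered 16 (0.135%), 0.858% in all. Of these 86, 61 were lower in Csf2ra-/- cells with GM-CSF (70.9%, against 2.89% of all genes), 0 were higher, and the median was -1.50, the same with the 2 genes at 0 counts put at their bound. Untreated, 19 of the 86 were lower (22.1%, against 5.32% of all genes) and 6 higher, with a median of -0.27. The list was 39 genes long without wild-type IL-10 replicate 1, of which 35 were lower, and 45 genes long without replicate 2, of which 38 were lower.

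Of the 86 genes, 78 were negative in sign in Csf2ra-/- cells with GM-CSF. The 25 that were not called included Cish, Socs2 (-0.09 ± 0.13), Socs1 (-0.77 ± 0.23, adjusted p = 0.0694), Egr2 and Ccl3. The 16 genes that GM-CSF lowered in the IL-10 libraries behaved in another way. With GM-CSF 2 of them were lower in Csf2ra-/- cells, 0 were higher and the median was -0.34. Untreated, 14 of them (87.5%) were lower in Csf2ra-/- cells and the median was -1.61. Igf1, the insulin-like growth factor gene, had 3.08, 2.33 and 2.36 CPM in Csf2ra-/- cells with GM-CSF, against 3.49, 1.65 and 5.14 CPM in wild-type cells with GM-CSF, and untreated 3.70, 3.00 and 4.08 CPM in Csf2ra-/- cells and 17.2, 20.5 and 19.3 CPM in wild-type cells. Its untreated wild-type libraries thus stood alone above the other 3 groups.

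Genes near Csf2ra on chromosome 19 were read beside it. Within 5 Mb of it, 21 other genes were tested, and 6 of them (28.6%, against 3.79% of all genes) were called, each lower in Csf2ra-/- cells. They were Shtn1 (-2.86 ± 0.36, adjusted p = 2.32e-05), Rab11fip2 (-1.18 ± 0.28), Fam204a (-1.21 ± 0.15), Fam45a (-0.48 ± 0.13), Grk5 (-0.89 ± 0.22) and Zfp950 (-0.92 ± 0.13). Zfp950, 0.083 Mb away, had 14.4, 11.7 and 12.04 CPM in Csf2ra-/- cells, against 22.8, 25.8 and 24.02 CPM in wild-type cells. All of the 6 but Fam45a were also called lower in untreated cells, and the median of the 21 was -0.139. Rab11fip2, Fam45a and Grk5 each lost the call in 4 of the 6 fits that left out a library. Away from Csf2ra, the highest shares among windows of 10 Mb with at least 15 genes tested lay on chromosomes 6, 1 and 10. On chromosome 6, 5 of 17 genes between 10 and 20 Mb were called (29.4%). On chromosome 1, 11 of 46 between 80 and 90 Mb were called (23.9%, the 8 Ugt1a genes and Glrp1 among them). On chromosome 10, 7 of 30 between 10 and 20 Mb were called (23.3%, Adgrg6 and Hebp2 among them). Of these calls 3 on chromosome 6, 11 on chromosome 1 and 7 on chromosome 10 were also called in the same direction in untreated cells. Zfp950 and Grk5 overlap on opposite strands, and the strand setting of the counts is not given in the sources used here.

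**Figure D5:**
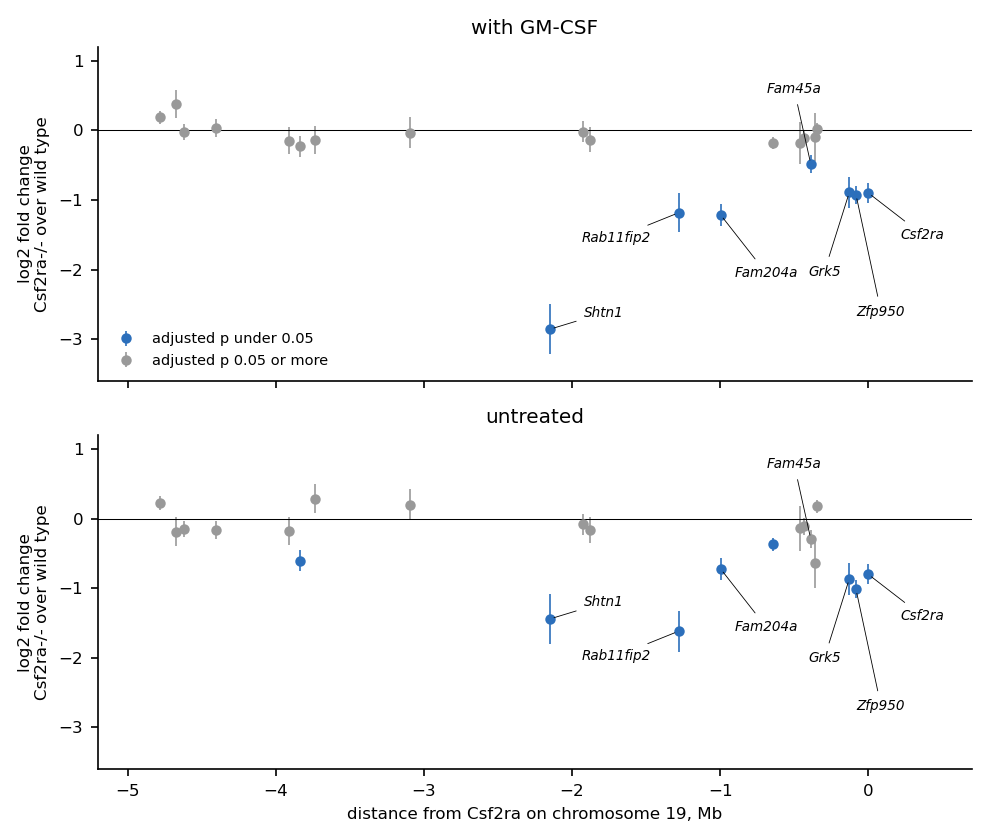
Log2 fold change ± SE (Csf2ra-/- over wild type) of 22 tested genes within 5 Mb of Csf2ra by distance from it in Mb, with GM-CSF above and untreated below; blue marks adjusted p under 0.05. The genes called with GM-CSF, which carry their names, lie within 2.15 Mb of Csf2ra and below 0.

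Markers of other cells that a bone marrow culture could hold were read beside these results. Of 16 monocyte and macrophage markers tested, 4 were lower (Ccr2 -2.11 ± 0.27, Cd14, Lyz2 -0.69 ± 0.18 and Cd68 -0.68 ± 0.19) and 0 higher, with a median of -0.82. Their summed level was 1611 to 1887 CPM in Csf2ra-/- cells and 1711 to 1888 CPM in wild-type cells, of which Ly6c2 alone gave 1439.7, 1418 and 1265 CPM in Csf2ra-/- cells and 1232, 1320.0 and 1209 CPM in wild-type cells. Marco and Cd163 were at 0 in all 6 libraries. Ccr2 had 8.38, 5.87 and 6.28 CPM in Csf2ra-/- cells, against 34.6, 19.9 and 35.3 CPM in wild-type cells, without overlap. These calls numbered 2 without Csf2ra-/- replicate 1, Csf2ra-/- replicate 2 or wild-type replicate 1, and 3 or 4 without the other libraries. Untreated, 10 of the 16 markers were lower in Csf2ra-/- cells (against 5.32% of all genes tested), 0 were higher and the median was -2.008.

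Of 11 dendritic cell markers, 5 were lower and 0 higher, with 2 lower without Csf2ra-/- replicate 2 and 3 without Csf2ra-/- replicate 1 or wild-type replicate 3. They were Itgax, Zbtb46 (-2.97 ± 0.60), Ccr7 (-1.64 ± 0.35), Batf3 (-1.52 ± 0.36) and Cd209a, which had 0, 0.0750 and 0.148 CPM in Csf2ra-/- cells, against 3.60, 0.768 and 8.61 CPM in wild-type cells. Summed levels were 2420 to 2828 CPM in Csf2ra-/- cells and 2990 to 3585 CPM in wild-type cells, and Xcr1 was at 0. Itgax, at the levels given above, and Cd209a made up a small part of these sums, most of which came from other markers. Of 16 neutrophil markers, 4 were lower and 0 higher, with sums of 2233 to 2477 CPM in Csf2ra-/- cells and 2696 to 3032 CPM in wild-type cells. S100a8 had 33.3, 25.8 and 36.4 CPM, against 141, 91.95 and 94.4 CPM in wild type (-1.77 ± 0.29, adjusted p = 8.47e-04), and S100a9 (-1.14 ± 0.15), Lcn2 (-1.37 ± 0.27) and Ltf (-0.66 ± 0.13) were the others. Untreated, 4 of the 11 dendritic cell markers were lower in Csf2ra-/- cells, 0 were higher and the median was -0.918. Of the 16 neutrophil markers 6 were lower untreated, 0 were higher and the median was -0.587. The part that cells of these types have in the falls of chemokine, lectin, MHC class II and remodelling genes was not tested.

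Mast cell and basophil markers (9 tested, 0 called) summed to 692 to 846 CPM in Csf2ra-/- cells and 532 to 699 CPM in wild-type cells. Of 8 erythroid and platelet markers (1474 to 1626 CPM in Csf2ra-/- cells and 1094 to 1388 CPM in wild-type cells in sum), Hbb-bt (0.90 ± 0.22) and Itga2b (0.38 ± 0.10) were higher and Car2 (-1.93 ± 0.29) lower. Hbb-bt lost the call in 4 and Itga2b in 5 of the 6 fits without a library. Nkg7 (0.55 ± 0.14) among 5 lymphocyte markers, Pdgfrb (0.72 ± 0.19) among 6 stromal markers and Erg (0.55 ± 0.13) among 9 progenitor markers were higher, and the progenitor markers summed to 502 to 547 CPM in Csf2ra-/- cells and 429.7 to 455 CPM in wild-type cells. The calls of Nkg7, Pdgfrb and Erg were each lost in 4 of those 6 fits.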

How the data were processed

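Each of the authors' deposited files gives raw counts of reads for Ensembl genes in 1 library, as the header of its value column names them. The submitters' processing notes list STAR, featureCounts and the build GRCm38.p6. The sources used here give neither versions nor the strand setting, nor how reads shared by genes were counted. Symbols and positions came from GENCODE mouse release 21, and a symbol was missing for 34 of 25746 genes (0.0189% of the counts). Totals over the series ran from 6222979 to 18709153 counts.

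Counts were TMM-scaled and fitted with edgeR 4.0.16 on R 4.3.3 (robust quasi-likelihood test, 8 group means, 24 libraries, Benjamini-Hochberg adjustment); filterByExpr kept 11885 genes. The common biological coefficient of variation was 14.1%. All adjusted p-values come from that test. The code was tested on simulated data. DESeq2 1.42.0, limma 3.58.1 (voom), other filters, other sets of groups, a Y-linked covariate and leaving out each library were alternatives; list counts with a library left out were added after seeing the data.

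Genes were named where the adjusted p was under 0.05, libraries did not overlap and the higher group averaged at least 5 CPM, without predicted models, taking the 14 largest rises and falls, with called members of 33 lists, the receptor chains, called neighbours of Csf2ra and, for lists with 0 calls, members of high level. Other uncalled genes were picked after their values were seen. The comparison, lists and rules were chosen with earlier results of these data known. Intervals cover counting error only.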

Additional observations from a re-analysis of the deposited data

Results flagged for a closer look

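The following genes stood out because their genotype difference with GM-CSF and their genotype difference without it were not the same by a direct test of the change. The size of that change is given on the log2 scale, as the difference with GM-CSF minus the difference without it. Kif1a changed by -7.43 (adjusted p = 0.00797), with 2 counts over the 3 Csf2ra-/- libraries with GM-CSF and 71 over the wild-type libraries with GM-CSF, a wild-type to Csf2ra-/- ratio whose 95% counting interval ran from 8.67 to 273. Untreated, Kif1a had 0.247, 0.530 and 3.19 CPM in Csf2ra-/- cells and 0.392, 0.0860 and 0.150 CPM in wild-type cells, and 1 Csf2ra-/- library carried most of its reads. It was below the level set for naming and is given here after its values were seen.

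Ccl17 changed by -5.36, Ccl4 by -2.87, Clec4n by -2.82, Car4 by -1.71 and Spp1 by -1.49. Egr1 changed by 1.84 in the other direction. For Ccl17, Car4 and Spp1 the untreated libraries of the genotypes overlapped, whereas Ccl4 and Clec4n were already lower in untreated Csf2ra-/- cells, by -0.91 and -1.69.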

How the results depend on the processing

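With DESeq2, 168 genes were higher and 425 lower in Csf2ra-/- cells with GM-CSF, and with limma-voom 108 and 287. A fit of the 2 groups alone gave 32 and 167, and a fit of the 4 groups without IL-10 gave 36 and 218, where fewer libraries set the spread. Size factors, both filters and the Y-linked covariate gave 83 to 111 and 232 to 339. Leaving out a library gave 37 to 137 higher genes and 185 to 326 lower genes; the lowest of each came without Csf2ra-/- replicate 2, and 62 higher genes were left without Csf2ra-/- replicate 1 or wild-type replicate 1, and 46 higher and 214 lower without wild-type replicate 3. The Csf2ra log2 fold change then ranged from -1.02 to -0.77. Genes whose genotype difference changed with GM-CSF numbered 27 by DESeq2, 3 with the 4 groups and 4 to 12 with a library left out. The untreated comparison gave 359 genes with the 4 groups, 747 with the Y-linked covariate and 291 to 2620 with a library left out. The list of GM-CSF-raised genes, rebuilt in each setting, gave 82 lower genes with DESeq2 and 35 to 66 with a library left out. Where the fit kept its libraries but the count moved, the cause was not tested. Of 391 values of the 28 named genes under these settings, 378 kept their call and direction, 13 lost the call (Pdzph1, Col6a3 and Clec2i) and 0 reversed. No paired analysis was run. The labels state no pairing, and the replicate numbers used here follow the order of the deposit. The sample titles end in S numbers, and whether these mark matched cultures is not given in the sources used here. If treated, untreated or IL-10 libraries shared cultures, the tests ignored that pairing and the libraries were not independent. Depth limits genes below about 1 CPM, where a group total can be a few counts.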

Other observations

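The largest changes of all included genes of low level, chosen here after their values were seen. Glrp1 had 0, 0 and 0 CPM in Csf2ra-/- cells with GM-CSF, against 2.17, 2.47 and 2.60 CPM in wild-type cells with GM-CSF (adjusted p = 1.24e-06). With 0 counts against 119, it was at least 36.3-fold lower against a floor of 3 counts over the group. It was also at 0 in the 3 untreated Csf2ra-/- libraries, against 3.14, 1.81 and 2.09 CPM in untreated wild-type cells. Scimp, an adaptor of antigen-presenting cells, had 0.108, 0 and 0 CPM in Csf2ra-/- cells, against 3.66, 2.41 and 3.98 CPM in wild-type cells, and untreated 0, 0.236 and 0.0590 CPM in Csf2ra-/- cells and 0.261, 0.344 and 0.449 CPM in wild-type cells. Ffar4, a receptor for long-chain fatty acids, had 0 counts over the Csf2ra-/- libraries with GM-CSF and 32 over the wild-type libraries, at least 9.8-fold lower.

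On the rising side, Hebp2 had 1.24, 2.93 and 1.77 CPM in Csf2ra-/- cells with GM-CSF, against 0.114, 0.110 and 0.217 CPM in wild-type cells with GM-CSF (3.70 ± 0.54, adjusted p = 1.41e-04), and untreated 1.23, 1.94 and 2.84 CPM in Csf2ra-/- cells and 0.131, 0.258 and 0.299 CPM in wild-type cells. The predicted gene Gm11273 had 7.08, 7.45 and 7.54 CPM, against 1.14, 1.21 and 0.868 CPM in wild type (2.75 ± 0.34), and the same order untreated (2.49 ± 0.33).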
